A study of Mus musculus with 2 samples.

Results

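The mitochondrial ribosome translates the messenger RNAs of the mitochondrial genome, which encode core subunits of the respiratory chain and of ATP synthase. Its proteins are encoded by nuclear genes, made in the cytosol and imported. The Mrpl genes are named for the large subunit, which forms peptide bonds, and the Mrps genes for the small subunit, which decodes the messenger. In the adrenal gland, mitochondria also carry out the first and last steps of corticosteroid synthesis in the cortex.

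The 77 genes described here were protein-coding genes whose symbol begins with Mrpl or Mrps followed by a number and that had a row in both gene tables, of 43346 Ensembl genes in all. They comprised 48 Mrpl genes and 29 Mrps genes on 17 chromosomes, with 11 of them on chromosome 11. Mrpl33 also matches the name rule in the newer annotation but under another gene identifier, and it was not analysed here. Polyadenylated RNA came from the adrenal gland of 1 adult female C57BL/6J mouse aged 10 weeks. It was sequenced as technical replicate 2, which was added in 2015, and technical replicate 1, which was made earlier. No genotype or treatment is labelled, and both libraries are of the same biological sample, so every value below compares libraries and not animals, and library and date cannot be told apart. In a bulk sample, fewer cells of a type and less RNA per cell cannot be told apart either.

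Rounded expected counts totalled 17376660 in replicate 2 and 28267651 in replicate 1. Mitochondrially encoded genes took 10.6% of the counts in replicate 2 and 40.1% in replicate 1. Levels are therefore given as nuclear TPM, a length-normalised level rescaled over nuclear genes, with mitochondrial genes and their nuclear copies left out. Markers of adrenal cortex and medulla were present. The 6 cortex markers summed to 43085 nuclear TPM in replicate 2 and 41203 in replicate 1, and the 5 medulla markers to 7288 and 1940, with Pnmt at 0 counts in replicate 1. The 4 fat markers summed to 3708 nuclear TPM in replicate 2 and 2643 in replicate 1, and the 3 skeletal muscle markers to 348 and 10.5. Kidney and liver markers summed to 0.617 and 2.37 nuclear TPM in replicate 2 and to 0.800 and 1.09 in replicate 1, with Umod and Slc34a1 of the kidney at 0 in both. By the test used for the members below, 2 of the 6 cortex markers were called higher in replicate 2 and 1 lower. Cyp11a1 had 6647 nuclear TPM in replicate 2 and 1501 in replicate 1, Nr5a1 621 and 37.8, and Mc2r 569 and 1402. With the trend on GC content removed, 1 cortex marker was higher and none lower. Of the other markers, 4 of 5 for medulla, 1 of 4 for fat and 3 of 3 for muscle were called higher. With that trend removed, 3, 3 and 3 of these were higher, and 1 medulla marker was called lower. Their part in the values below was not tested.

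The members with the highest ratio between the libraries differed in GC content over the coding sequence from those with the lowest. The first 120 coding bases of the 3 members at each end are given, read 5′ to 3′ from the reference transcript on GRCm38. Runs of at least 6 G or C are in capitals. The 3 with the highest ratio come first. They are Mrpl4 (chromosome 9, 21002941 to 21003146, plus strand), Mrpl14 (chromosome 17, 45695502 to 45698096, plus strand) and Mrpl54 (chromosome 10, 81265806 to 81266890, minus strand). The 3 with the lowest ratio are Mrpl1 (chromosome 5, 96210163 to 96213875, plus strand), Mrpl32 (chromosome 13, 14612899 to 14613018, minus strand) and Mrpl50 (chromosome 4, 49514550 to 49521053, minus strand). Where a span exceeds the printed length, it holds an intron that the sequence leaves out. For Mrpl32 the transcript shown, Mrpl32-202, was not quantified, and the gene's counts come from Mrpl32-201, which has 42.7% GC.
Mrpl4: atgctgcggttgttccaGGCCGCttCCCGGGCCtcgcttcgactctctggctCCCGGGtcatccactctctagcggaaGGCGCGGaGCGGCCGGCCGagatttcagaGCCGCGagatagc
Mrpl14: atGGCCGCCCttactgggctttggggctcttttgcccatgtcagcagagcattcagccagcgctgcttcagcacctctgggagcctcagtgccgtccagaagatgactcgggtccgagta
Mrpl54: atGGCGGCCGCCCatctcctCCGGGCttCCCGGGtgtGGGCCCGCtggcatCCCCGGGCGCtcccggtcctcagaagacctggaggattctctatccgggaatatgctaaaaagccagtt
Mrpl1: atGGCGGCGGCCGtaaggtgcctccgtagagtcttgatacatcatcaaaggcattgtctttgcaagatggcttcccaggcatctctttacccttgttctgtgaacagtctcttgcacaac
Mrpl32: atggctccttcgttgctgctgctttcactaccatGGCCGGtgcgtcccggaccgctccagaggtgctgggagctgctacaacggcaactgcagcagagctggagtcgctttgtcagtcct
Mrpl50: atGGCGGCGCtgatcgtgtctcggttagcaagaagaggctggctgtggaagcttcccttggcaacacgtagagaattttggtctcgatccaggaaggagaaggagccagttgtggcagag

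Of the 120 bases shown, 44 lay in such runs in Mrpl4, 8 in Mrpl14 and 41 in Mrpl54, against 11 in Mrpl1, 6 in Mrpl32 and 8 in Mrpl50. Over the whole coding sequence the GC content was 60.0%, 58.2% and 60.7% in Mrpl4, Mrpl14 and Mrpl54, and 41.6%, 47.2% and 45.9% in Mrpl1, Mrpl32 and Mrpl50. The runs at the start did not separate Mrpl14 from the low group. Nor did GC content over the 120 bases shown, at 60% in Mrpl14 and 60.8% in Mrpl32. Mrpl4 and Mrpl54, at 66.7% and 64.2%, lay above all 3 of the low group in the bases shown. GC content over the whole coding sequence separated all 3 from all 3.

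Every one of the 77 genes reached 1 TPM in replicate 2, and 67 of them did so in replicate 1. The median nuclear TPM was 95.8 in replicate 2, which was above 85.4% of tested protein-coding genes, and 40.8 in replicate 1, above 70.1% of them. Together the members took 0.741% of nuclear TPM in replicate 2 and 0.462% in replicate 1. Mrpl genes had a median nuclear TPM of 91.5 in replicate 2 and 42.4 in replicate 1, and Mrps genes 96.9 and 40.8. The median of the large subunit was 0.945 times that of the small one in replicate 2 and 1.04 times in replicate 1. The subunits thus stood at nearly equal median levels within each library, while both medians were higher in replicate 2.

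Levels were far more even in replicate 2. The upper quartile of nuclear TPM was 1.79 times the lower quartile there and 6.13 times in replicate 1. In replicate 2 the members ran from 16.8 to 292 nuclear TPM, with 62 of 77 within 2-fold of the median, whereas in replicate 1 they ran from 0.171 to 288, with 33 within 2-fold. Cytosolic ribosomal protein genes, whose products form the ribosome of the cytosol, had quartile ratios of 1.90 and 12.5, and nuclear respiratory chain genes 2.60 and 15.7, in replicates 2 and 1. The wider spread in replicate 1 was therefore shared with both of those lists. The order of the members was also not shared between the libraries. Spearman's rho of their levels in replicates 2 and 1 was 0.05 across 77 genes, compared with 0.09 across 84 cytosolic ribosomal protein genes, 0.43 across 83 respiratory chain genes and 0.66 across 13498 tested protein-coding genes. Genes within a library share its depth and base composition, so these values are descriptions. The sets also differ in range. In replicate 2 the quartile ratio was 5.04 for 8774 protein-coding genes reaching 1 TPM in both libraries, beside 1.79 for the members. A narrow range can itself lower a rank correlation, so rho is not directly comparable between the members and all tested genes. Of the 20 highest members in each library, 8 were the same genes.

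**Figure D1:**
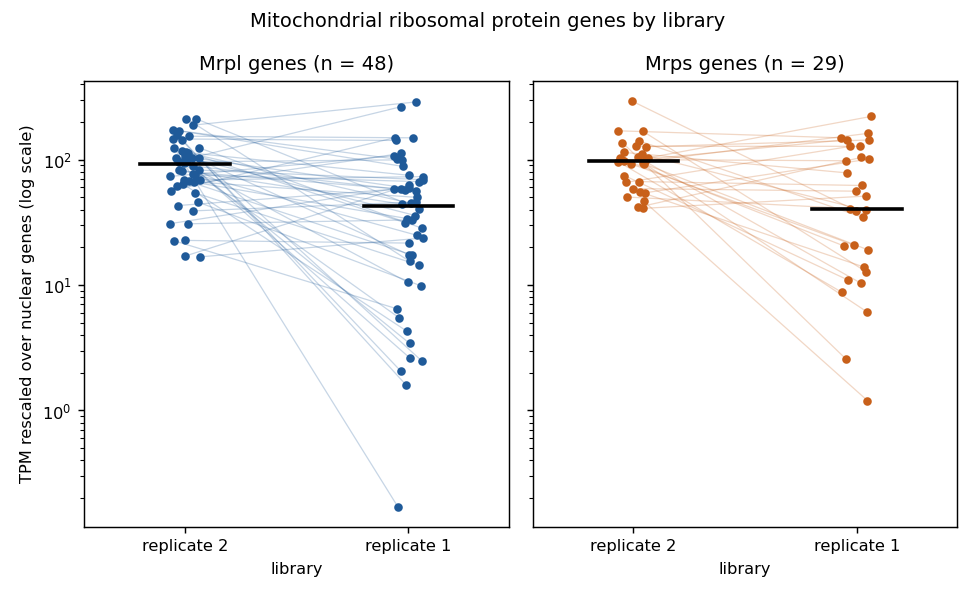
Nuclear TPM (log scale) of 48 Mrpl genes and 29 Mrps genes in replicate 2 and replicate 1, with 1 point per gene, a thin line joining the same gene and a black bar at the median. Mrpl medians lie at 91.5 and 42.4 and Mrps medians at 96.9 and 40.8, and the points spread more widely in replicate 1.

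Among large-subunit genes, Mrpl30 had the highest mean level, with 188 nuclear TPM in replicate 2 and 288 in replicate 1. Mrpl32, a protein of the subunit whose maturation by a mitochondrial protease is known in yeast and mouse, had 97.0 nuclear TPM in replicate 2 and 265 in replicate 1. Mrpl51 had 154 and 149 nuclear TPM in replicates 2 and 1. The first of these was higher in replicate 1 on this scale, the next clearly so, and the third nearly level. Mrpl42 had 146 and 142 nuclear TPM in replicates 2 and 1, Mrpl24 had 172 and 101, and Mrpl20 had 169.8 and 88.3. At the low end, Mrpl11, whose bacterial homologue lies at the base of the stalk that recruits translation factors, had 22.6 nuclear TPM in replicate 2 and 6.46 in replicate 1. Mrpl35 had 16.8 and 23.7, Mrpl57 22.7 and 21.6, and Mrpl46 45.9 and 9.83 nuclear TPM in replicates 2 and 1. The low members did not share a direction: Mrpl35 was higher in replicate 1 and Mrpl57 nearly level.

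In the small subunit, Mrps21 had the highest mean level, with 292 nuclear TPM in replicate 2 and 39.1 in replicate 1. Mrps33 had 103 nuclear TPM in replicate 2 and 221 in replicate 1, and Mrps23 had 169.7 and 149. Mrps21 led through replicate 2, Mrps33 through replicate 1, and Mrps23 through both. Mrps18c had 96.9 and 162 nuclear TPM and Mrps6 had 128 and 128 in replicates 2 and 1. The lowest means belonged to Mrps26, with 46.5 nuclear TPM in replicate 2 and 1.20 in replicate 1, and to Mrps25, with 55.1 and 13.9. Mrps28 had 74.5 and 11.0, and Mrps27, a pentatricopeptide repeat protein, 50.3 and 40.8 nuclear TPM in replicates 2 and 1. All 4 of these low members were higher in replicate 2, to very different degrees.

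On counts scaled with TMM (trimmed mean of M-values), 34 of the 77 members were called higher in replicate 2 and 4 lower, at an adjusted p under 0.05 and a fold of at least 2 (exact binomial test, Benjamini-Hochberg over 14358 genes). Those shares are 44.2% and 5.19% of the members. Over all tested genes 36.4% were called higher, 27.8% lower and 64.2% either way, so the share called higher was near the background and the share called lower was well under it. The members' median log2 ratio of replicate 2 to replicate 1 was 0.64, beside 0.10 for all tested genes. With the trend of the ratio on gene length removed, the members' median turned to -0.37, beside -0.24 for all tested genes. The test covers counting error between these libraries only.

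Large-subunit genes gave 23 higher, 3 lower and 22 not called, with a median log2 ratio of 0.95, and small-subunit genes 11 higher, 1 lower and 17 not called, with a median of 0.17. Both medians turned negative with the length trend removed, to -0.31 and -0.85. Whether the subunits differ from each other was not tested. In the naming of ribosomal proteins by homology, which counts Mrps18a and Mrps18b as mitochondria-specific although they are related in sequence to Mrps18c, the 45 members with a bacterial homologue gave 21 higher and 2 lower (median 0.82), and the 31 mitochondria-specific members 13 higher and 2 lower (median 0.59). Mrps36 is in neither group, since it is now placed with the 2-oxoglutarate dehydrogenase complex and not with the ribosome.

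The widest ratios were in the large subunit. Mrpl4 had 1049 counts in replicate 2 and 1 count in replicate 1, a scaled ratio of 777 (95% exact interval 139 to 30711). Mrpl14, with a bacterial homologue at the face that meets the small subunit, had 487 and 3 counts, a ratio of 120 (40.9 to 585). Mrpl54, placed at the stalk base in mammalian structures, had 497 and 5 counts, a ratio of 73.6 (31.3 to 228). With 1 to 5 counts in replicate 1, these genes have wide intervals. Mrpl38, of the central protuberance, had 901 counts in replicate 2 and 14 in replicate 1, and Mrpl12, the stalk protein, had 895 and 16. Mrpl2 followed with 622 and 16, and Mrpl28 with 675 and 21.

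Lower calls were few and shallow by comparison. Mrpl1, whose bacterial homologue forms the mobile stalk near the exit site for transfer RNA, had 324 counts in replicate 2 and 873 in replicate 1, a log2 ratio of -1.86. Mrpl32 had 431 and 892 counts, a log2 ratio of -1.48, and Mrpl50 had 833 and 1671, a log2 ratio of -1.44. Mrpl47, with 421 and 540 counts, and Mrpl18, with 554 and 643, were not called, at log2 ratios of -0.79 and -0.65. These genes were well counted in both libraries, unlike those at the other end. Mrps30, named for the small subunit but placed in the large one in mammalian structures, had 449 counts in replicate 2 and 848 in replicate 1 and was called lower at a log2 ratio of -1.35. With Mrps18a and Mrps30 moved to the large subunit and Mrps36 left out, that subunit gave 24 higher and 4 lower of 50, and the small one 10 higher and none lower of 26.

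In the small subunit Mrps34 had the widest ratio, with 788 counts in replicate 2 and 12 in replicate 1, a scaled ratio of 48.6 (95% exact interval 27.7 to 94.5). Mrps21 had 633 and 30 counts and Mrps11 had 588 and 28, with log2 ratios of 3.94 and 3.93. Mrps16 had 487 and 28 counts and Mrps12, whose bacterial homologue lies at the decoding centre, had 584 and 39. The lowest limit of the 95% exact intervals of these 5 was 8.01-fold, for Mrps12. At the other end, Mrps22 had 511 and 750 counts, Mrps2 had 794 and 1111, and Mrps15 had 533 and 628 in replicates 2 and 1. None was called, at log2 ratios of -0.99, -0.92 and -0.67. The Mrps18 paralogs did not move together before the GC trend was removed. Mrps18a had 549 counts in replicate 2 and 51 in replicate 1, Mrps18b had 614 and 87, and Mrps18c had 330 and 428. The first pair was called higher at log2 ratios of 2.98 and 2.38, and Mrps18c, at -0.81, was not called. Mrps36 had 476 and 419 counts and a log2 ratio of -0.25.

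**Figure D2:**
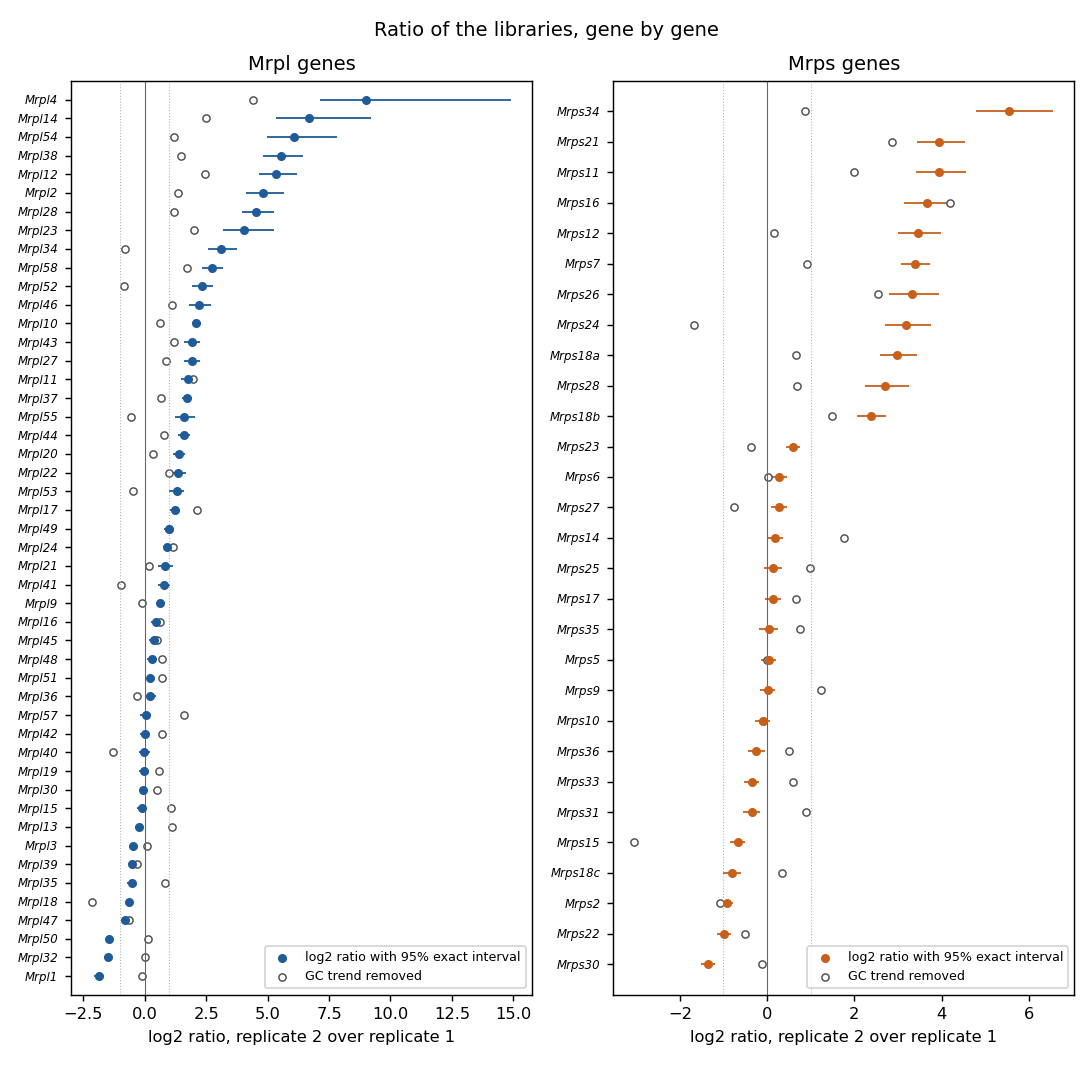
Log2 ratio of replicate 2 to replicate 1 for each Mrpl gene and each Mrps gene, sorted, with filled points and 95% exact intervals from counts, open points after removal of the GC trend, and dotted lines at a 2-fold difference. The filled points run from -1.86 (Mrpl1) to 9.02 (Mrpl4) and, once the GC trend is removed, Mrpl4 moves to 4.40 and Mrpl54 to 1.19.

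Some members were assigned to a place in the ribosome, and these groups are not full lists of the proteins at each site. Mrpl4, Mrpl17, Mrpl27, Mrpl55 and Mrpl58, all called higher, and Mrpl18, not called, were assigned to no site. All 5 members assigned to the stalk base were called higher, where 36.4% of all tested genes were. Mrpl10, which anchors the stalk, had 1452 counts in replicate 2 and 250 in replicate 1, Mrpl11 had 468 and 101, and Mrpl53 had 393 and 118, beside Mrpl12 and Mrpl54 above. Their median log2 ratio was 2.10 and their median GC content 53.9%. With the GC trend removed, 3 of the 5 calls held and the median was 1.19, with Mrpl10 at 0.62 and Mrpl53 at -0.46. In the decoding region and the path of the messenger, 4 of the 5 assigned members were called higher, with a median of 3.38. Mrps7 had 1132 and 80 counts and Mrps24 had 437 and 35, beside Mrps11 and Mrps12, while Mrps5, with 716 and 517, was not called. That group's median GC content was 55.2%, above the 50.9% of all members. With the GC trend removed, the call held for Mrps11 alone, Mrps24 was called lower instead, and the group's median was 0.16. Of the 6 members assigned to the exit tunnel 3 were called higher. Mrpl22 had 332 and 97 counts, Mrpl23 had 212 and 9, and Mrpl44, which has a ribonuclease III-like fold, had 729 and 179. Mrpl24, with 1236 and 486, Mrpl45, which in human cells ties the ribosome to the inner membrane, with 531 and 303, and Mrpl47 were not called. Of the members assigned to the central protuberance, Mrpl38 and Mrpl46 were called higher, the second with 324 and 51 counts. Mrpl40, with 386 and 291, and Mrpl48, with 523 and 315, were not.

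The remaining higher calls were Mrpl17, Mrpl20, Mrpl27, Mrpl34, Mrpl37, Mrpl43, Mrpl52, Mrpl55 and Mrpl58, and in the small subunit Mrps26 and Mrps28, with log2 ratios between 1.23 (Mrpl17) and 3.31 (Mrps26). Mrpl58, a peptidyl-tRNA hydrolase built into the large subunit, had 485 counts in replicate 2 and 54 in replicate 1. Mrpl34 had 329 and 28, Mrpl52 had 364 and 53, and Mrpl55 had 261 and 63. The remaining uncalled members were Mrpl3, Mrpl9, Mrpl13, Mrpl15, Mrpl16, Mrpl19, Mrpl21, Mrpl30, Mrpl35, Mrpl36, Mrpl39, Mrpl41, Mrpl42, Mrpl49, Mrpl51 and Mrpl57, and in the small subunit Mrps6, Mrps9, Mrps10, Mrps14, Mrps17, Mrps23, Mrps25, Mrps27, Mrps31, Mrps33 and Mrps35. Among these Mrps10 had 664 and 528 counts in replicates 2 and 1. They lay between -0.53 (Mrpl35) and 0.98 (Mrpl49). Mrpl49, at 805 and 302 counts, was the uncalled member with the highest ratio.

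The ratio of the libraries followed GC content. Across the 77 members Spearman's rho between gene GC content and log2 ratio was 0.77, at 0.82 for Mrpl genes and 0.65 for Mrps genes, and across 14317 tested genes with a GC value it was 0.89. The points of each correlation share both libraries. In the tertile of members lowest in GC (41.1% to 47.9%), 2 were called higher and 4 lower, with a median log2 ratio of -0.11. In the middle tertile 11 were higher and none lower, with a median of 0.87. In the highest tertile (52.5% to 60.8%) 21 were higher and none lower, with a median of 3.19. Other tested protein-coding genes in the same GC ranges had medians of -1.15, 0.30 and 2.65. In the lowest range 48 of these 4189 genes were called higher and 2463 lower. In the middle range 678 of 2750 were higher and 169 lower. In the highest range 3906 of 4713 were higher and 30 lower, so most genes there were called higher, members or not. The members thus lay above genes of like GC content in each range, by a margin that was largest in the lowest one. Their median length was 1070 bases, beside 2083 for protein-coding genes. The relation of level to GC content had opposite signs in the libraries: rho between GC content and nuclear TPM was 0.32 in replicate 2 and -0.58 in replicate 1. In replicate 2 level fell with length, at a rho of -0.64.

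**Figure D3:**
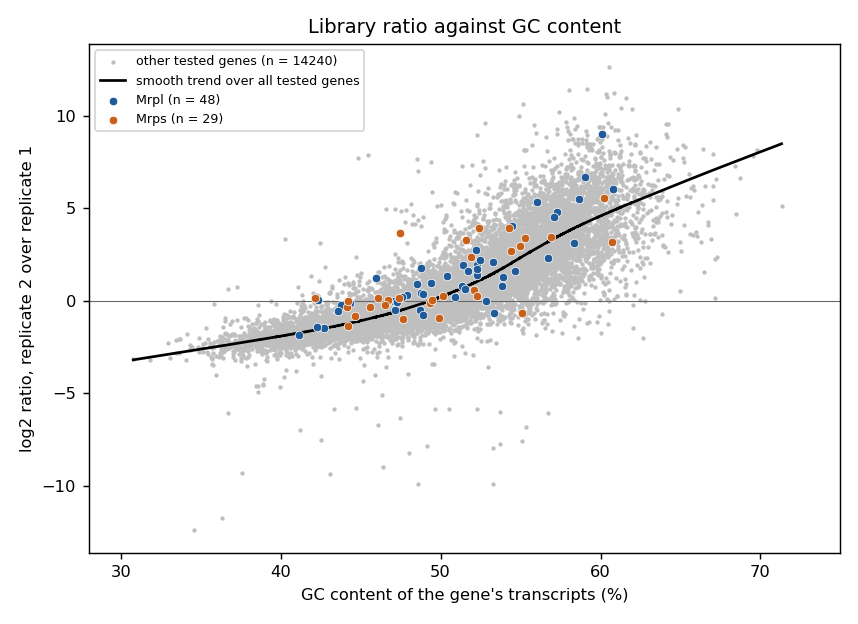
Log2 ratio of replicate 2 to replicate 1 against the GC content of each gene's transcripts (%), for 48 Mrpl genes, 29 Mrps genes and 14240 other tested genes, with the smooth trend over all tested genes. The members follow the trend (rho 0.77), and 57 of 77 lie above it.

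With the GC trend removed, 25 members were called higher and 5 lower, that is 32.5% and 6.49%, where 12.9% and 11.8% of all tested genes were called. The medians became 0.67 for all members, 0.71 for Mrpl and 0.66 for Mrps genes, beside -0.03 for all tested genes. Of the 34 higher calls, 19 held and 14 ended, and that of Mrps24 turned to lower, at -1.67. Mrpl13, Mrpl15, Mrpl24, Mrpl57, Mrps9 and Mrps14 newly passed as higher. None of the 4 lower calls held, with Mrpl1 at -0.12, Mrpl32 at 0.010, Mrpl50 at 0.12 and Mrps30 at -0.12. Mrpl18, Mrpl40, Mrps2 and Mrps15 newly passed as lower, the last at -3.05. Mrpl4 stayed highest at 4.40, followed by Mrps16 at 4.18, Mrps21 at 2.86 and Mrps26 at 2.55. Mrps16 stood apart from the trend, since its GC content was 47.5% and its ratio rose under the correction, whereas Mrpl54 dropped to 1.19 and Mrps34, at 0.87, lost its call. With the trends on GC content and length removed together, 16 of the 77 members were higher and 10 lower. Of all tested genes, 11.6% were then called higher and 12.1% lower. The higher call held in all 3 fits for 13 members, which were Mrpl4, Mrpl11, Mrpl12, Mrpl14, Mrpl17, Mrpl23, Mrpl38, Mrpl58, Mrps11, Mrps16, Mrps18b, Mrps21 and Mrps26.

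Transcript composition differed between the libraries too. The members had 275 transcripts in the tables, and 19 members had only 1. The leading transcript, that with the highest share of its gene, was the same in 51 members and differed in 26, and in 25 of these its share differed by more than 20 percentage points between the libraries. The types of transcripts below are those of GENCODE M21. In 19 of the 25 the leading transcript of replicate 2 had the higher GC content, in 4 the lower, and in 2 they were within 0.05 points. The median difference was 2.87 points. In 11 of the 25 replicate 1 had fewer than 100 counts, so its leading transcript rested on few fragments. Of the 14 others, 9 had the higher GC content in replicate 2. Such changes were not counted over all genes, so whether they are particular to the members was not tested.

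Mrps26, with 395 counts in replicate 2 and only 29 in replicate 1, showed the widest contrast in GC content. Its leading transcript in replicate 2 had 1057 bases and 61.3% GC and is typed as retaining an intron. That transcript held 92.7% of the gene in replicate 2 and 0% in replicate 1. In replicate 1 a protein-coding transcript of 4278 bases and 49.2% GC held 100%, on those 29 counts. Mrpl17 was led in replicate 2 by a transcript of 459 bases (51.5% of the gene, against 13.5% in replicate 1) and in replicate 1 by one of 3848 bases (5.88% in replicate 2, against 83.9%). Both contrasts enter the TPM scale through length. For Mrpl17 the scaled count ratio was 2.34 while nuclear TPM was 212 in replicate 2 and 15.4 in replicate 1. Mrps25, Mrps5 and Mrps14 were likewise led by short transcripts in replicate 2 (565, 718 and 674 bases) and by long ones in replicate 1 (6073, 4481 and 2999 bases). Mrps25 had 503 counts in replicate 2 and 341 in replicate 1, and Mrps14 had 639 and 420, and neither passed the test. In Mrpl30 a transcript of 662 bases held 43.3% in replicate 2 and none in replicate 1, where one of 501 bases held 85.7%.

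Other genes with a change of leading transcript were Mrpl2, Mrpl3, Mrpl14, Mrpl20, Mrpl21, Mrpl22, Mrpl23, Mrpl24, Mrpl38, Mrpl48, Mrpl55, Mrpl58, Mrps6, Mrps10, Mrps12, Mrps18a, Mrps21, Mrps23 and Mrps33. The coding transcript of Mrps6 held 100% of the gene in replicate 2, while a noncoding processed transcript held 89.0% in replicate 1. Mrpl3, which had 655 and 680 counts, was the clearest case the other way, with 48.8% GC in its replicate 2 lead and 56.9% in its replicate 1 lead. Over the 25 genes the lead was protein-coding in both libraries in 11, only in replicate 2 in 9, only in replicate 1 in 4 and in neither in 1. Protein-coding transcripts made up 85.4% of the members' summed TPM in replicate 2 and 76.7% in replicate 1. Over the 67 members reaching 1 TPM in both libraries the shares were 84.5% and 76.9%, against 94.96% and 96.5% over 8774 protein-coding genes reaching it. The median share per gene was 98.6% and 99.8% for those members and 99.9% and 100% for those genes. The lower sums thus came from a part of the members, such as Mrpl32, whose only quantified transcript is not typed as protein-coding.

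**Figure D4:**
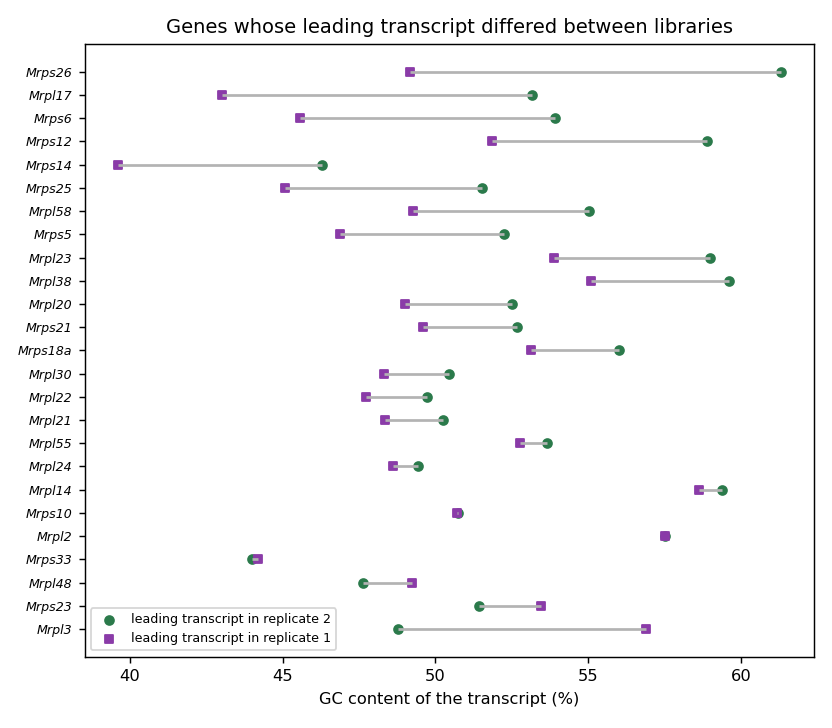
GC content (%) of the leading transcript in replicate 2 (circles) and in replicate 1 (squares) for the 25 genes whose leading transcript differed between the libraries by more than 20 percentage points in share. The circle lies to the right of the square in 19 genes by more than 0.05 points, most widely in Mrps26 (61.3% and 49.2%), which had 29 counts in replicate 1.

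Some members share sequence with other loci, so their counts are uncertain. Mrpl21, Mrpl22, Mrpl27 and Mrps21 have a processed pseudogene with 95% identity or more across 50% or more of their longest transcript. The pseudogenes of Mrpl27 and Mrps21 were at 0 counts in both libraries, and those of Mrpl21 and Mrpl22 had no row. Mrpl21 itself had 311 counts in replicate 2 and 130 in replicate 1, and Mrpl27 had 496 and 97. Mrpl53 shares 88.0% of its exonic bases with Gm42688, a gene model on the same strand with 115 and 30 counts. Mrps34 shares 37.0% of its exonic bases with Nme3, also on the same strand (387 and 20 counts). On the opposite strand, Mrps34 shares 63.4% of its exonic bases with Mapk8ip3 (2035 and 194 counts) and Mrps25 shares 69.8% with Nr2c2 (1301 and 1816 counts). Mrps18b overlaps the antisense gene Gm16279, which had 5 and 1 counts. No source used here states that counting used strand, so reads of pairs on opposite strands may not have been told apart. Strand cannot part the pairs on the same strand. In all, 32 members overlapped another gene in exonic bases, 28 of them on the opposite strand. Mrpl23-ps1, a processed pseudogene named for Mrpl23, had 175 counts in replicate 2 and 3 in replicate 1, beside 212 and 9 for Mrpl23.

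At their start sites the members had neighbours more often than most genes. A divergent protein-coding gene started within 1000 bases upstream of 18 of the 77 members, or 23.4%. The share was 6.83% of protein-coding genes in the tables, 9.53% of tested ones, 22.9% of respiratory chain genes and 10.7% of cytosolic ribosomal protein genes. Opposite-strand pairs whose 5′ ends overlap, such as Mrpl46 and Mrps11, were not counted in any of these groups. Both partners are given by their own ratio. Mrpl54 and Apba3, 26 bases apart, had log2 ratios of 6.07 and 7.31, and Mrps12 and Sars2, which encodes the mitochondrial seryl-tRNA synthetase, had 3.45 and 6.01. Mrpl50 and Zfp189 were both below 0, at -1.44 and -1.29. Other pairs parted: Mrpl49 was at 0.98 and Fau, which encodes a cytosolic ribosomal protein, at 5.98, and Mrpl32 was at -1.48 and Psma2, of the proteasome, at -0.01.

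Promoter sequences from RefSeq (GRCm38.p6, from 250 bases before to 50 after the start) were matched for 68 members with 74 promoters and searched on both strands. The ETS core CCGGAAG was found in 33.8% of the members' promoters and 16.1% of those of tested protein-coding genes, and the NRF1 box in 17.6% and 9.22%. The YY1 box AAGATGGC was found in 16.2% and 4.08%. ETS proteins, NRF1 and YY1 are transcription factors known to act on many nuclear genes for mitochondrial proteins. The GC box GGGCGG was found in 52.7% of the members' promoters and 61.3% of those of tested genes, the CCAAT box in 39.2% and 37.4%, and the TATA box TATAAA in 6.76% and 7.36%. A match is a description of these letters and was not tested as a site. The GC content was 58.8% at the median promoter of the members and 60.7% at that of tested genes. To show where such matches lie, 150 bases from 170 to 21 before the start are given for the first 3 members by name that hold a match to the NRF1, ETS or YY1 motif in that window free of any exon. They are read on the gene's strand, with only those matches in capitals, and the other motifs are not marked. Mrpl17 holds an NRF1 box (chr7:105811108-105811257, minus strand), and Mrpl22 (chr11:58171494-58171643, plus strand) and Mrpl34 (chr8:71464756-71464905, plus strand) hold an ETS core.
Mrpl17: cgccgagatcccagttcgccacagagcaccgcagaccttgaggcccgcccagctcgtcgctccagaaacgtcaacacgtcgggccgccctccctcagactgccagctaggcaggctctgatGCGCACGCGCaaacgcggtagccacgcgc
Mrpl22: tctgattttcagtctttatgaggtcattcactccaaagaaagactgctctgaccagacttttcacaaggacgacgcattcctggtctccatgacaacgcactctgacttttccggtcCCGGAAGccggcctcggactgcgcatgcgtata
Mrpl34: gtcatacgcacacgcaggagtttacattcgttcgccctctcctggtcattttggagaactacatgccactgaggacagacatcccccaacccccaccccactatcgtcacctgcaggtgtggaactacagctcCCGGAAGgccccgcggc

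Other genes of mitochondrial translation were set beside the members. Of 5 ribosome subunits with other names, 2 were higher and 1 lower, with a median log2 ratio of 0.63. Ptcd3 had 70.3 nuclear TPM in replicate 2 and 200 in replicate 1, Chchd1 had 104 and 131, and Dap3, the GTP-binding protein of the small subunit, had 120 and 112. Of 16 translation factors with a row, 5 were higher and 2 lower, with a median of -0.13. Slirp, a partner of Lrpprc in the stability of mitochondrial messengers, had 123 and 169 nuclear TPM, Gfm1, an elongation factor, 103 and 148, and Tufm, another elongation factor, 235 and 7.43. With the GC trend removed, the medians were -0.04 for the other subunits and 0.07 for the factors, beside 0.67 for the members, and the difference was not tested. The list used for assembly factors gave 12 higher and 4 lower of 22 (median 1.26). It counts Tfam, a factor of mitochondrial DNA and not itself an assembly factor, which had 57.0 and 238 nuclear TPM. Mterf3 had 46.0 and 224 and Fastkd2 24.5 and 71.2. Mitochondrial tRNA synthetases gave 9 higher and 2 lower of 17 (median 1.28), with Lars2 at 403 and 34.6 nuclear TPM, Iars2 at 103 and 74.999 and Rars2 at 28.1 and 63.3. With the GC trend removed, the assembly factor list gave 8 higher and 2 lower (median 0.57) and tRNA synthetases 3 higher and 1 lower (median 0.27).

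The ribosome's RNA partners moved the other way. Both mitochondrially encoded ribosomal RNAs and all 13 mitochondrially encoded messengers were called lower in replicate 2, with median log2 ratios of -2.65 and -3.18 that became -0.11 and -0.83 without the GC trend. Their median GC contents were 35.6% and 37.1%. Cytosolic ribosomal protein genes gave 60 higher and 1 lower of 82 tested (median 2.61, or 1.55 without the GC trend), with Rps24 at 2372 and 5368, Rplp1 at 3401 and 44.2 and Rpl10 at 2034 and 1018 nuclear TPM in replicates 2 and 1. Respiratory chain genes gave 50 higher and 5 lower of 81 (median 2.04, or 1.21 without it), with Uqcrb at 808 and 2859, Atp5b at 2229 and 803 and Ndufa4 at 1135 and 1526. All 3 nuclear-encoded families lay above the median of all tested genes, also without the GC trend, with the mitochondrial ribosomal protein genes the lowest of them. Median lengths were 1070 bases for the members, 673 for cytosolic ribosomal protein genes and 680 for respiratory chain genes. With the length trend removed the members' median fell below that of all tested genes. The other families were not examined in that fit, so their order without the length trend was not tested.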

How the data were processed

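RNA with poly(A) tails from a single gland sample gave 2 libraries, which are technical replicates. Expected counts, estimated fragments per gene, are given in the deposited tables and were rounded. TPM, named so per the file headers, shares 1 fixed sum per library. FPKM in the deposited tables served only as an alternative for detection, and the posterior mean TPM and its bounds, treated as a score, are likewise deposited by the authors. Shares of transcripts in percent are deposited in the transcript tables. Notes deposited by the authors state that reads were placed on mm10 with GENCODE M4 and quantified from transcriptome alignments. Which aligner and counter were used is not given in the sources used here.

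Rows were matched to GENCODE M21 (GRCm38, that is mm10). GC content was averaged per gene, weighted by length, over M21 transcripts that are listed in the tables. Of 69691 rows, 43346 were Ensembl genes, and the other 26345 were at 0. Nuclear copies of mitochondrial genes were 15 genes matching at 90% identity over 50% of their length (BLAST 2.17.0). A two-sided exact binomial test was run on the 14358 genes whose counts summed to 20 or more, with TMM-scaled library sizes (edgeR 4.0.16, R 4.3.3; scipy 1.17.1), Benjamini-Hochberg adjusted, and called at an adjusted p under 0.05 and a fold of at least 2. Log2 ratios used a prior count of 0.5. Trends were smoothed with lowess (span 0.3, statsmodels 0.14.6). Intervals are exact (95%) and, without molecular identifiers, cover counting error only. Alternatives included total-count scaling, DESeq2 1.42.0 size factors, other count minimums, and removal of the GC trend, the length trend or both.

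Members and gene lists were chosen with earlier results of these data known. Per-library values were given by rule for the 6 highest and 4 lowest levels and the 5 highest and 5 lowest ratios of each subunit, for members with near-identical copies, for the Mrps18 paralogs, Mrps30 and Mrps36, and for changed leading transcripts. Other named members fill out the groups by site. The GC tertiles, the GC comparison of leading transcripts, the printed sequence windows and the divergent pairs named were chosen after their values were seen.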

Additional observations from a re-analysis of the deposited data

How the results depend on the processing

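No paired analysis was possible because the 2 libraries form 1 group. DESeq2 size factors, other count minimums and leaving out mitochondrial genes kept every call of a member, with 1 member newly called under the size factors and 1 with no count minimum. Other settings moved results, and the cause was not tested. The higher count of 34 became 60 when scaled by total counts, 22 without the length trend and 16 without both trends. The lower count of 4 became 0, 28 and 10 under those settings, and 10 at a fold of at least 1.5. Under the same settings 54.1%, 31.1% and 11.6% of all tested genes were called higher, beside 36.4% in the main fit. Called lower were 3.95%, 33.8% and 12.1% of them, beside 27.8% in the main fit and 35.8% at a fold of at least 1.5. The large-subunit median log2 ratio of 0.95 became 2.08 with total-count scaling, 0.71 without the GC trend, 0.39 without both and -0.31 without the length trend. That of the small subunit, 0.17, became 1.31, 0.66 and -0.85 with total-count scaling and without the GC or length trend, and 0.54 on nuclear TPM. Total-count scaling moved the median of all genes by 1.14, length removal by -0.34 and GC removal by -0.13, and medians of log2 ratios were taken as moved past 0.1. The median level was 69.1 nuclear TPM for Mrpl and 72.9 for Mrps genes, and 30.9 and 33.0 in TPM as deposited. Taken from 1 library at a time, it ran from 42.4 to 91.5 and from 40.8 to 96.9, and members detected from 67 to 77.

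Single members changed sign as follows. Without the GC trend the log2 ratio was 1.09 for Mrpl13, 1.08 for Mrpl15, 0.010 for Mrpl32, -0.82 for Mrpl34, 0.12 for Mrpl50, -0.85 for Mrpl52, -0.46 for Mrpl53, -0.54 for Mrpl55 and -1.67 for Mrps24. Without both trends it was -0.27 for Mrpl20, -1.38 for Mrpl34, -1.51 for Mrpl41, 0.040 for Mrpl50, -1.46 for Mrpl52, -1.05 for Mrpl53, -1.03 for Mrpl55, -0.42 for Mrps12 and -2.17 for Mrps24. Without the length trend it was -0.29 for Mrpl20, -0.33 for Mrpl22, -1.33 for Mrpl36, -1.66 for Mrpl42, -1.28 for Mrpl48, -1.18 for Mrpl51, -0.37 for Mrpl53, -1.37 for Mrps17, -1.38 for Mrps35, -1.33 for Mrps6 and -1.03 for Mrps9. Total-count scaling gave 1.01 for Mrpl15, 1.10 for Mrpl19, 1.05 for Mrpl30, 1.11 for Mrpl40 and 1.03 for Mrps10. Members called in neither fit were not counted as changed. In replicate 1, 8 members had fewer than 20 counts, which limits the precision of their ratios.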
